A study of Mus musculus with 12 samples.

Results

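The tricarboxylic acid (TCA) cycle and the 2 routes that feed carbon into it, from pyruvate and from branched-chain amino acids, were followed through 41 genes in the perigonadal white fat of mice. The genes were listed by symbol as enzymes, carriers and regulators of these pathways, and no measured value enters the rule. They were chosen with earlier results of these data known, so no count over them is independent support. They are 41 of the 53379 genes with a row in the count files: 18 of the TCA cycle, 10 of pyruvate entry and 13 of branched-chain amino acid breakdown. All 41 were found once, and all 41 were among the 16554 genes that had enough counts to be tested.

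The TCA cycle in the mitochondrial matrix oxidises acetyl-CoA to carbon dioxide and passes the electrons to the respiratory chain. Pyruvate reaches it through the mitochondrial pyruvate carrier and the pyruvate dehydrogenase complex, which PDK kinases switch off by phosphorylation and PDP phosphatases switch on again, or through pyruvate carboxylase. Leucine, isoleucine and valine are transaminated, decarboxylated by a related dehydrogenase complex and broken down to acetyl-CoA, acetoacetate and succinyl-CoA. Fat is a known site of this breakdown, and adipocytes that are stimulated through beta-adrenergic receptors raise their mitochondrial oxidation.

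The fat came from C57BL/6 mice aged 9 weeks, killed at zeitgeber time 9, that is 9 hours after lights on. The 4 groups of 3 libraries were control littermates given saline (wt saline), control littermates given CL (wt CL), knockout mice given saline (ko saline) and knockout mice given CL (ko CL). Both treatments lasted 7 days. The knockout is of Cdk7, a kinase of the general transcription machinery, and the labels call it adipose-specific. The labels give neither the Cre driver nor the sex of the mice, and they name the drug only as CL, read here as the beta-3-adrenergic agonist commonly abbreviated so. RNA of 2 mice, 250 ng from each, was pooled to the 500 ng behind each library, so the p-values below measure the spread between pools of 2 mice.

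Each library held 21892817 to 27985019 counts assigned to genes. Levels are given as CPM, that is counts brought to a common library total by the trimmed mean of M values (TMM). Groups follow the sample titles, because a genotype field in the labels follows the treatment and contradicts 6 of the 12 titles. Cdk7 itself was at 29.3 to 30.0 CPM in wt saline, 30.4 to 35.4 in wt CL, 11.02 to 11.7 in ko saline and, under CL in ko, 18.1 to 23.6. It was lower in ko than in wt under saline (log2 fold change ± its standard error (SE) -1.38 ± 0.10, adjusted p = 6.21e-06) and CL treatment (-0.68 ± 0.093, adjusted p = 3.64e-05; quasi-likelihood test of edgeR, Benjamini-Hochberg adjusted). The 8 adipocyte markers were present in every library and summed to 22080 to 24623 CPM in wt saline, 27230 to 29580 in wt CL, 15586 to 16639 in ko saline, but only 7666 to 11589 in ko CL. The 8 macrophage markers summed to 1291 to 1369, 706 to 844, 1289 to 1335 and 10422 to 15168 CPM in the same order. Library 1 of ko CL stood apart from the other 2 of its group: it had the lowest adipocyte sum, the highest macrophage sum and the lowest level of its group for 39 of the 41 genes. In whole tissue, fewer cells of a type and less RNA per cell cannot be told apart.

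Because most of these genes moved together, the sequence before their start sites was read from the RefSeq promoter table of GRCm38.p6, which covers 250 bases before to 50 bases after each start. It held promoters for 36 of the 41 genes. Letters of the site bound by NRF1, a regulator of nuclear genes for mitochondrial proteins, were searched on both strands as GCGC, any base and TGCGC in a row, and lay in the promoters of 6 of the 36 genes (16.7%): Dld, Hibadh, Pccb, Sdha, Sdhd and Sucla2. Among all 12167 tested genes with a promoter in the table the share was 9.90%. CCAAT, the letters of the NF-Y site, lay in 22 of 36 (61.1%) against 42.0% of tested genes, and CCGGAAGT of the ETS family in 1 of 36 (2.78%), Dlst, against 7.92%. TNAAGGTCA, a response element of the oestrogen-related receptors, lay in Sdhd alone (2.78%, against 0.986% of tested genes), and the direct repeat read by PPAR and RXR, AGGTCA written 2 times with any base between, in none of the 36 (0.058% of tested genes). A match describes letters in this window and shows no binding. 3 promoters with the NRF1 letters in capitals, each on the minus strand and written 5′ to 3′, are shown for members whose values are given below, followed by that of Pdk4, the member with the widest range, with its inverted CCAAT in capitals; all 4 end before the annotated start of transcription.
Sdha, chr13:74350281-74350363: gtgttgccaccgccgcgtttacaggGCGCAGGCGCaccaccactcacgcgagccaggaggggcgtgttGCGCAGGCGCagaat
Sdhd, chr9:50603894-50603953: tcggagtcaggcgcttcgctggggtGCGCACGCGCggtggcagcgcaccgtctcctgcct
Pccb, chr9:101034919-101034978: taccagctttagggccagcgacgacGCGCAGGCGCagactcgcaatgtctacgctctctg
Pdk4, chr6:5496310-5496528: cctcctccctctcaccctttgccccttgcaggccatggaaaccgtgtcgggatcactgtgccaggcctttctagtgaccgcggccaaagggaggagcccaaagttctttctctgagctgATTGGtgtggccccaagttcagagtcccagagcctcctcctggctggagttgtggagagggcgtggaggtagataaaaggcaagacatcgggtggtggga

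CL raised nearly every gene of the 3 pathways in wt fat. Of the 41, 38 were called higher and none lower at an adjusted p under 0.05, where 19.6% of all tested genes were called higher and 17.1% lower. Here and below, calls and adjusted p-values come from edgeR's quasi-likelihood test on all 12 libraries, Benjamini-Hochberg adjusted over all tested genes, and differences are log2 fold changes ± SE. No member was lower at an unadjusted p under 0.05 by edgeR, or at an adjusted p under 0.05 by DESeq2. Of the TCA cycle, 17 of 18 rose, with a median log2 difference of 1.16 over the 18. Of pyruvate entry, 9 of 10 rose, with a median of 1.53, and of branched-chain amino acid breakdown 12 of 13 rose, with a median of 0.79. Over all tested genes the median was -0.01. Markers of other cells moved in the same comparison: all 5 brown and beige adipocyte markers (summed 16.3 to 31.1 CPM in wt saline, 401 to 464 under CL) and 3 of 4 endothelial markers (826 to 871, then 1022 to 1318 CPM) were higher. All 4 fibroblast markers (809 to 835, then 357 to 446 CPM), all 4 mesothelial markers (188.9 to 229.6, then 79.4 to 92.6 CPM), 6 of 8 macrophage and 4 of 5 duct markers were lower. Their part in the rise of the members was not tested.

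**Figure D1:**
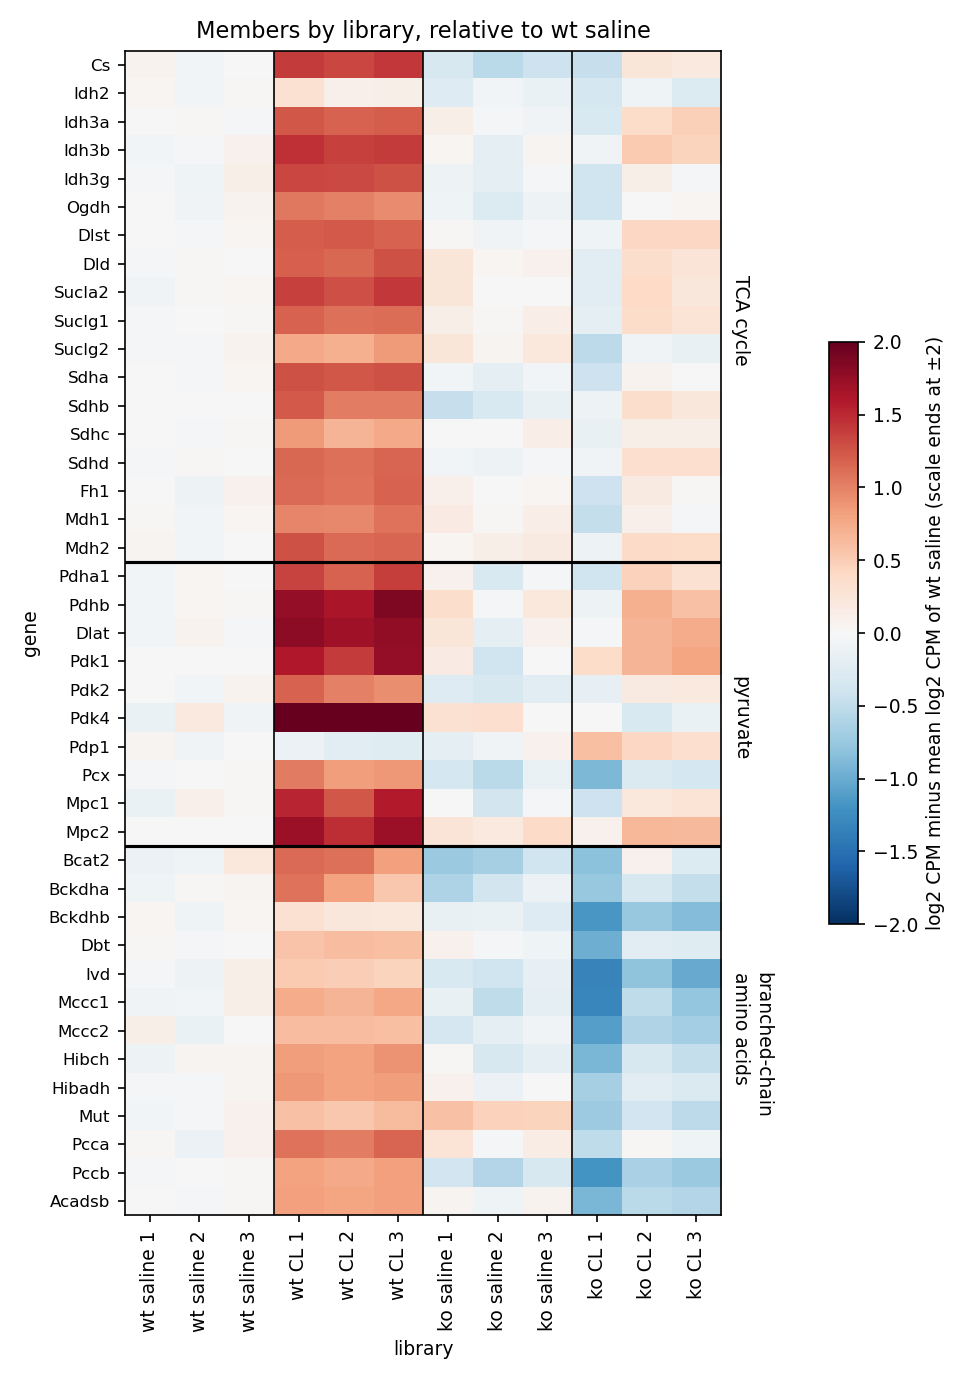
Log2 CPM of each of the 41 genes in each of the 12 libraries, relative to the mean of wt saline, with genes in rows by pathway, libraries in columns by group and colours limited at the ends of the scale. The wt CL columns are raised in nearly every row, the ko saline columns stay near the wt saline level in most rows, and the ko CL columns are lowered in most branched-chain amino acid rows.

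Citrate synthase (Cs, ENSMUSG00000005683, chr10:128337734-128362479, plus strand), which opens the cycle by joining acetyl-CoA to oxaloacetate, stood at 781, 711 and 735 CPM for wt saline, 1949, 1882 and 1979.9 for wt CL, 595, 509.9 and 559 for ko saline and 536, 879.7 and 853 for ko CL. All wt CL libraries lay above every other library, and the rise in wt was 2.61-fold (log2 1.38 ± 0.15, adjusted p = 2.1e-05). The 3 subunits of the NAD-dependent isocitrate dehydrogenase, Idh3a, Idh3b and Idh3g, rose by log2 1.21 ± 0.15, 1.40 ± 0.13 and 1.31 ± 0.11. Idh3a, the catalytic subunit, was at 273, 279 and 270.2 CPM for wt saline, 649.9, 622 and 635 for wt CL, 297, 269.8 and 260.04 for ko saline and 222, 355 and 382 for ko CL. Idh3g, a regulatory subunit, was at 197, 188 and 216 CPM for wt saline, 505, 499 and 484 for wt CL, 187, 175 and 198 for ko saline and 152, 216 and 197 for ko CL. Idh2, the NADP-dependent mitochondrial isocitrate dehydrogenase, was the TCA gene that missed the threshold in wt. It stood at 149, 140.1 and 148 CPM for wt saline, 180.4, 156 and 158 for wt CL, 122, 140.00 and 134 for ko saline and 114, 137 and 120.2 for ko CL, with a wt difference of 0.18 ± 0.084, adjusted p = 0.117.

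The 2-oxoglutarate dehydrogenase complex and the later steps moved by similar amounts in wt. Ogdh, its first subunit, was at 544, 516 and 568 CPM for wt saline, 1127, 1091 and 1041 for wt CL, 512, 448 and 508 for ko saline and 411, 543 and 555 for ko CL and rose 2.002-fold (log2 1.002 ± 0.11, adjusted p = 2.04e-05). Dlst, its second subunit, rose by 1.21 ± 0.11, and Dld, the third subunit shared with the pyruvate and branched-chain complexes, by 1.21 ± 0.12. Succinate dehydrogenase, which also serves as complex II of the respiratory chain, rose in all 4 subunits, by 1.27 ± 0.11 for Sdha, 1.10 ± 0.11 for Sdhb, 0.77 ± 0.080 for Sdhc and 1.13 ± 0.093 for Sdhd. Sdha, the flavoprotein subunit whose promoter is printed above, was at 628, 607 and 642 CPM for wt saline, 1518, 1476 and 1520.1 for wt CL, 604, 552 and 601 for ko saline and 469, 655 and 629 for ko CL. In each of these genes the wt CL libraries lay above all others. Fumarase (Fh1) was at 150.2, 140.1 and 159.6 CPM for wt saline, 328, 316 and 338 for wt CL, 161, 151 and 155 for ko saline and 113, 170.2 and 152 for ko CL and rose by 1.13 ± 0.12. The mitochondrial malate dehydrogenase Mdh2 was at 439, 408 and 427 CPM for wt saline, 1025, 932 and 955 for wt CL, 436, 459 and 483 for ko saline and 394, 557 and 546 for ko CL and rose by 1.19 ± 0.11. Its cytosolic counterpart Mdh1, a part of the malate-aspartate shuttle, was at 798, 759 and 804 CPM for wt saline, 1544, 1529 and 1661 for wt CL, 877, 801 and 860.2 for ko saline and 563, 847 and 767 for ko CL and rose by 1.004 ± 0.12.

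Succinyl-CoA synthetase has a shared subunit, Suclg1, and 2 alternative partners, of which Sucla2 makes ATP and Suclg2 makes GTP. Sucla2 was at 177, 188 and 189 CPM for wt saline, 479, 452 and 494 for wt CL, 218, 184 and 186 for ko saline and 157, 242 and 215 for ko CL. Suclg2 was at 88.8, 88.3 and 94.8 CPM for wt saline, 154, 148 and 164 for wt CL, 107, 93.7 and 105 for ko saline and 62.96, 86.2 and 81.7 for ko CL. In wt, Sucla2 rose by 1.36 ± 0.13, adjusted p = 8.15e-06. Suclg2 rose by 0.77 ± 0.10, adjusted p = 7.97e-05, and Suclg1 by 1.13 ± 0.11. Suclg1 was at 127, 128 and 130.4 CPM for wt saline, 291, 275 and 278 for wt CL, 139, 130.3 and 140.3 for ko saline and 113, 166 and 155 for ko CL, again highest in wt CL. Per kilobase of exon, the ratio of Sucla2 to Suclg2 was 2.31 to 2.47 in wt saline, 3.501 to 3.61 in wt CL, 2.05 to 2.37 in ko saline and, under CL in ko, 2.897 to 3.26. The ratio needs no scaling between libraries, and in both genotypes all CL libraries lay above all saline libraries.

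At the pyruvate step, the members that rose most in wt were Pdk4 and 2 parts of the pyruvate dehydrogenase complex, Pdhb and Dlat. Pdk4, the kinase that inhibits the complex and is known to be induced by fasting and fatty acids, stood at 45.5, 56.7 and 47.5 CPM for wt saline, 227, 261 and 242 for wt CL, 61.5, 62.5 and 49.5 for ko saline and 49.6, 40.4 and 45.2 for ko CL. The gene lies on the minus strand at chr6:5483351-5496309 (ENSMUSG00000019577, GRCm38). It rose 4.88-fold in wt (log2 2.29 ± 0.11, adjusted p = 2.61e-07), and the wt CL libraries were far above all others. Pdk1 was at 78.6, 77.4 and 77.4 CPM for wt saline, 237, 204 and 264 for wt CL, 86.8, 58.98 and 77.8 for ko saline and 101, 124 and 135 for ko CL and rose by 1.59 ± 0.14 in wt. Pdk2, the kinase found in most tissues, was at 73.7, 71.3 and 77.4 CPM for wt saline, 169, 148 and 142 for wt CL, 61.7, 59.6 and 63.1 for ko saline and 65.8, 83.9 and 84.5 for ko CL and rose by 1.04 ± 0.094. Pdp1 (ENSMUSG00000049225, chr4:11958184-11966452, minus strand), a phosphatase that reactivates the complex, did not rise, at 18.5, 17.01 and 18.01 CPM for wt saline, 16.5, 15.5 and 15.1 for wt CL, 15.7, 17.1 and 18.9 for ko saline and 26.9, 23.7 and 22.5 for ko CL. Its libraries in wt CL all lay below those in wt saline, but the difference did not pass the test (-0.19 ± 0.093, adjusted p = 0.135). Pdp2, another phosphatase of the complex and 1 of the further genes below, was higher in wt CL than in all other libraries. It stood at 23.6, 25.7 and 25.5 CPM for wt saline, 57.2, 60.6 and 59.1 for wt CL, 20.9, 22.5 and 25.05 for ko saline and 18.99, 32.0 and 33.5 for ko CL.

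Pdhb, the beta subunit of the first enzyme of the complex, was at 322, 342 and 340.1 CPM for wt saline, 1136, 1037 and 1217 for wt CL, 425, 328 and 389 for ko saline and 312, 549 and 502 for ko CL and rose 3.38-fold in wt (log2 1.75 ± 0.17, adjusted p = 1.03e-05). Dlat, the second enzyme, stood at 145, 157 and 148 CPM for wt saline, 519, 484 and 512 for wt CL, 178, 131 and 158 for ko saline and 148, 239 and 251 for ko CL and rose 3.37-fold (log2 1.75 ± 0.17, adjusted p = 8.38e-06). Pdha1, the alpha subunit that carries the phosphorylation sites, was at 606, 648 and 630.3 CPM for wt saline, 1599, 1424 and 1643 for wt CL, 668, 507 and 618 for ko saline and 476, 867 and 776 for ko CL and rose by 1.31 ± 0.18. Both subunits of the mitochondrial pyruvate carrier rose, Mpc1 by 1.46 ± 0.17 and Mpc2 by 1.64 ± 0.13. Mpc1 was at 227, 267 and 251 CPM for wt saline, 714, 583 and 747 for wt CL, 249, 192 and 241 for ko saline and 185, 287 and 300.5 for ko CL, and Mpc2 at 126, 128 and 128 CPM for wt saline, 418, 357 and 419 for wt CL, 153, 146 and 167 for ko saline and 135, 202 and 201 for ko CL. For all 3 the wt CL libraries lay above every other library. Pyruvate carboxylase (Pcx), which makes oxaloacetate and in fat also serves fatty acid synthesis and glyceroneogenesis, was at 1822, 1857 and 1878 CPM for wt saline, 3813, 3290.0 and 3395 for wt CL, 1447, 1278 and 1686 for ko saline and 998, 1517 and 1451 for ko CL and rose by 0.92 ± 0.15, adjusted p = 0.000357.

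**Figure D2:**
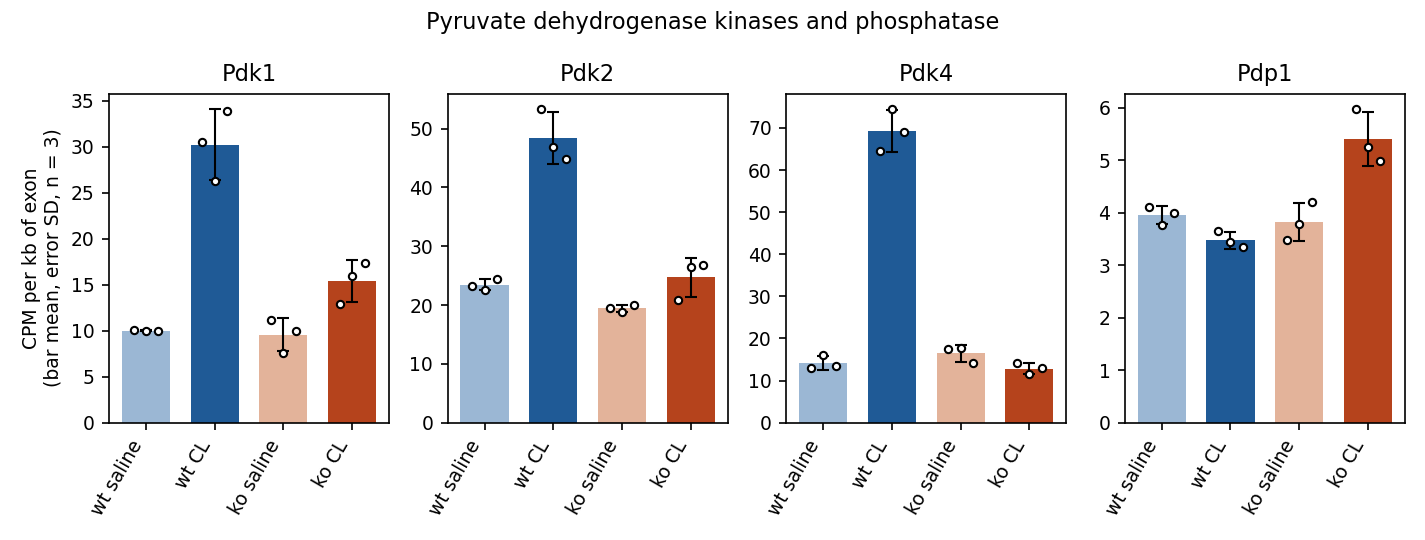
CPM per kilobase of exon of the kinases Pdk1, Pdk2 and Pdk4 and of 1 phosphatase, Pdp1, in the 4 groups. Bars stand at the mean, with error bars of 1 SD (n = 3) and 1 point per library. Pdp2, another phosphatase of the complex, and Pdk3, another kinase, are not drawn. Pdk4 lies at 64.5 to 74.5 in wt CL and at 11.5 to 17.8 in all other libraries, while Pdp1 is highest in ko CL, at 4.98 to 5.97.

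Per kilobase of exon, levels of different genes can be set side by side. The 3 kinases among the members together summed to 46.4 to 48.7 CPM in wt saline, 147.6 to 148.3 in wt CL, 44.02 to 48.2 in ko saline and, under CL in ko, 47.9 to 56.9. Pdk2 was the most abundant of them in all saline and all ko CL libraries, with 46.4 to 51.03%, 40.5 to 45.3% and 43.5 to 49.1% of the sum in wt saline, ko saline and ko CL. In wt CL, Pdk4 took its place, with 43.5 to 50.5%. The share of Pdk4 was 27.95 to 33.2% in wt saline, 32.00 to 40.2% in ko saline, but 21.3 to 29.5% under CL in ko. In wt all CL libraries had a higher share of Pdk4 than all saline libraries, and in ko all CL libraries had a lower one. Pdk3, another kinase of the complex and 1 of the further genes below, is left out of the sum and the shares. Its mean was 5.95 CPM per kilobase in wt saline, 4.31 in wt CL, 6.62 in ko saline and 6.32 in ko CL. Shares among the 3 kinases are given as a description, with no test. They rest on the exon lengths used, 7779 bases for Pdk1, 3163 for Pdk2 and 3511 for Pdk4. Without this division, Pdk1 lay above Pdk2 in mean CPM. The means were 77.8 against 74.2 in wt saline, 74.5 against 61.5 in ko saline and 119.8 against 78.1 in ko CL.

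Branched-chain amino acid genes had the smallest median rise of the 3 pathways in wt. Bcat2, the mitochondrial transaminase of the first step, stood at 204, 207 and 254 CPM for wt saline, 485, 471 and 391 for wt CL, 131, 139.9 and 168 for ko saline and 125, 234 and 182 for ko CL and rose by 1.02 ± 0.18, adjusted p = 0.000928. Of the branched-chain dehydrogenase complex, Bckdha was at 139, 149.9 and 153 CPM for wt saline, 311, 257 and 214 for wt CL, 96.3, 114 and 136 for ko saline and 86.7, 118 and 106 for ko CL and rose by 0.82 ± 0.15, adjusted p = 0.000937, and the core subunit Dbt, at 141, 135 and 139.6 CPM for wt saline, 205, 213 and 209.7 for wt CL, 146, 135 and 131 for ko saline and 70.1, 118 and 116 for ko CL, rose by 0.60 ± 0.14, adjusted p = 0.00617. Bckdhb, the beta subunit, was at 199, 182 and 197 CPM for wt saline, 239, 224 and 222 for wt CL, 174, 176 and 161 for ko saline and 85.5, 114 and 105 for ko CL, and its wt difference of 0.24 ± 0.092, adjusted p = 0.0526 did not pass the test, although its libraries did not overlap. Antisense genes share 1171 exonic bases with Bckdha (B3gnt8) and 622 with Bcat2 (0610005C13Rik). Counting was on the reverse strand by the file names, which separates reads of opposite strands.

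Below the dehydrogenase, the routes of the 3 amino acids were all raised in wt. In leucine breakdown, isovaleryl-CoA dehydrogenase (Ivd) was at 327, 309.9 and 359 CPM for wt saline, 474, 466 and 453 for wt CL, 268, 253 and 294 for ko saline and 131, 189 and 165 for ko CL and rose by 0.48 ± 0.11, adjusted p = 0.0047, and the subunits of methylcrotonyl-CoA carboxylase, Mccc1 and Mccc2, rose by 0.73 ± 0.16 and 0.61 ± 0.11. Mccc1 stood at 292, 294 and 331 CPM for wt saline, 511, 489 and 523 for wt CL, 277, 215 and 268 for ko saline and 124, 214 and 178 for ko CL. In valine breakdown, the hydrolase Hibch was at 185, 205 and 207 CPM for wt saline, 356, 348 and 372 for wt CL, 201, 159 and 173 for ko saline and 105, 159 and 142 for ko CL and rose by 0.85 ± 0.13, and the dehydrogenase Hibadh rose by 0.84 ± 0.10. Acadsb, the acyl-CoA dehydrogenase of isoleucine, stood at 249, 242 and 254 CPM for wt saline, 439, 427 and 438 for wt CL, 258, 234 and 259.8 for ko saline and 132, 170.4 and 166 for ko CL and rose by 0.81 ± 0.088, adjusted p = 2.21e-05. The common end of valine and isoleucine runs through propionyl-CoA carboxylase and methylmalonyl-CoA mutase (Mut) to succinyl-CoA. Its genes rose by 1.09 ± 0.12 for Pcca, the largest rise of the 13, 0.79 ± 0.12 for Pccb and 0.58 ± 0.083 for Mut. Pccb, whose promoter is printed above, was at 243, 252 and 255 CPM for wt saline, 435, 425 and 440.00 for wt CL, 192, 167 and 201 for ko saline and 109, 159.6 and 149.5 for ko CL.

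In ko fat the same treatment gave a split picture. Of the 41 genes, 9 were called higher, against 27.2% of all tested genes, and 13 lower, against 27.5%, so neither total stood out from all tested genes. The TCA cycle had 5 higher and 1 lower of 18 (median log2 difference 0.05), and its count of higher calls was near the share of all tested genes. Pyruvate entry had 4 higher and 1 lower of 10 (median 0.25), and branched-chain amino acid breakdown none higher and 11 lower of 13 (median -0.44). No branched-chain gene was higher at an unadjusted p under 0.05, or by DESeq2. Over all tested genes the median was -0.01. The adipocyte markers fell at the same time in 7 of 8 and the endothelial markers in 4 of 4 (summed 753 to 796 CPM in ko saline, 461 to 610.3 under CL). The macrophage markers rose in 8 of 8, the fibroblast markers in 2 of 4, and the brown and beige markers in 5 of 5, to 37.6 to 139 CPM from 7.58 to 10.6. The duct markers fell in 5 of 5, from 52.97 to 68.3 CPM in ko saline to 5.22 to 11.1 CPM under CL. Of 4 mesothelial markers, 2 fell and 1 rose. The part of any of these cells in these results was not tested.

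The 5 TCA genes that rose in ko were Cs, Idh3b, Dlst, Sdhb and Sdhd. Sdhb, the iron-sulphur subunit of succinate dehydrogenase, was at 148, 148 and 149.99 CPM for wt saline, 347, 303 and 303 for wt CL, 108, 119.9 and 134 for ko saline and 138, 190.2 and 174 for ko CL and rose by 0.47 ± 0.11, adjusted p = 0.00291, with no overlap between ko saline and ko CL. Cs rose by 0.45 ± 0.15, adjusted p = 0.0203 in the fit, but its libraries overlapped, since library 1 of ko CL lay within the ko saline range. Idh3b, Dlst and Sdhd rose by 0.35 ± 0.13, 0.29 ± 0.11 and 0.27 ± 0.092, also with overlap. Suclg2, the GTP-forming partner, fell (-0.40 ± 0.10, adjusted p = 0.00423). The other 12 were not called, with differences from -0.22 for Mdh1 to 0.21 for Idh3a.

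Of pyruvate entry, Pdk1 rose by 0.68 ± 0.14, adjusted p = 0.00108, Pdk2 by 0.34 ± 0.094, adjusted p = 0.00734 and Dlat by 0.45 ± 0.16, adjusted p = 0.031. Pdp1 rose by 0.50 ± 0.090, adjusted p = 0.000434, and all its ko CL libraries lay above all libraries of the other groups. Pdk4, the gene that rose most in wt, fell under CL in ko (-0.36 ± 0.11, adjusted p = 0.0151), with overlapping libraries. Pdha1, Pdhb, Mpc1, Mpc2 and Pcx were not called, at 0.24 ± 0.17, 0.25 ± 0.17, 0.18 ± 0.16, 0.21 ± 0.13 and -0.15 ± 0.14.

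Of the branched-chain genes, Mut fell most in ko. The gene (ENSMUSG00000023921, chr17:40934685-40961988, plus strand) stood at 208, 211 and 228 CPM for wt saline, 323, 314 and 334 for wt CL, 325, 298 and 295 for ko saline and 131, 165 and 149.6 for ko CL, so that it was 2.06-fold lower under CL in ko (log2 -1.04 ± 0.084, adjusted p = 4.27e-07). Ivd fell (-0.75 ± 0.11, adjusted p = 0.000109), Bckdhb (-0.75 ± 0.093, adjusted p = 2.12e-05) and Acadsb (-0.68 ± 0.088, adjusted p = 2.84e-05) did too, each with every ko CL library below every ko saline library. Mccc1, Mccc2, Dbt, Pccb, Hibch, Hibadh and Pcca also fell, with differences of -0.56, -0.59, -0.44, -0.42, -0.39, -0.36 and -0.31. Bcat2 (0.30 ± 0.18, adjusted p = 0.183) and Bckdha (-0.16 ± 0.15, adjusted p = 0.393) did not pass the test. Of the 13 genes, 10 were called higher by CL in wt and lower by CL in ko, as were 1 of 18 TCA genes (Suclg2) and 1 of 10 pyruvate genes (Pdk4). Of all tested genes, 4.33% had this pair of calls, and the 2 comparisons share no library. Under the alternative runs, 7 (without library 1 of ko saline) to 11 (without library 2 of ko CL) of the branched-chain genes had it. With the compared groups alone or with library totals, 8 had it.

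**Figure D3:**
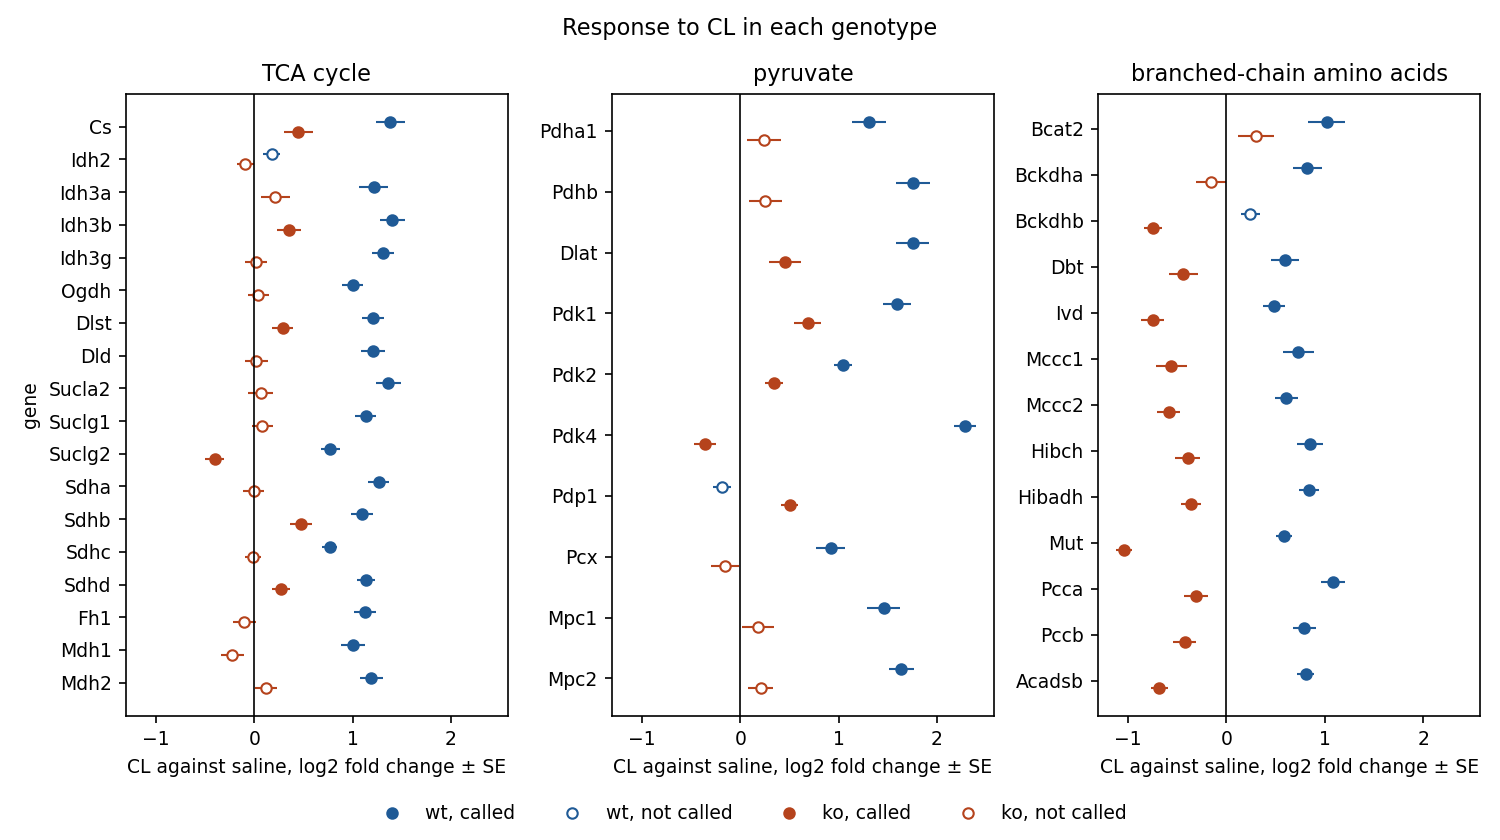
Log2 fold change of CL against saline for each gene, with 1 panel per pathway, genes in rows, wt in blue and ko in orange, bars of 1 SE and filled points for differences past the test. Every wt point but that of Pdp1 lies right of 0, all ko points lie left of their wt point except that of Pdp1, and the ko points of 12 of the 13 branched-chain genes lie left of 0.

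The calls in ko rest on single libraries more than those in wt. Without library 1 of ko CL, 17 genes were called higher and 12 lower, and of the branched-chain genes 1 was higher and 10 lower. The share of all tested genes called in each fit with a library left out is not given here, so these counts show only how calls moved. Without library 2 or 3 of ko CL, 3 were higher, and without library 2 or 3 of ko saline, 4. Cs, Idh3b, Dlst, Sdhd and Dlat lost their calls without any 1 of these 4 libraries. Left out in turn, library 2 or 3 of ko CL brought the differences down to 0.22 for Idh3b (library 2), 0.17 for Dlst, 0.17 for Sdhd and 0.28 for Dlat (library 3 each). Dlst and Sdhd also lost theirs without library 1 of wt saline or of ko saline, Idh3b without library 1 of ko saline, and Pdk2 without library 2 or 3 of ko CL. Pcca lost its call without any 1 of 7 libraries, at adjusted p = 0.0529 to 0.111. Without library 1 of ko CL its difference was -0.19, and that of Dbt moved from -0.44 to -0.26. Without library 1 of ko saline, Dbt and Hibch lost theirs at adjusted p = 0.0526 and 0.0637 by edgeR. With library totals in place of TMM, which moves the median of all tested genes by -0.32 in wt and -0.09 in ko, 4 members were higher and 14 lower in ko. Relative to the median of all tested genes with library totals, the wt medians of the 3 pathways were 1.17, 1.53 and 0.80.

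Under saline the knockout changed few of these genes. Of the 41, 1 was higher in ko saline than in wt saline, against 7.99% of all tested genes, and 2 were lower, against 6.45%, neither count being above these shares. Mut was higher in ko, at 295 to 325 against 208 to 228 CPM (0.50 ± 0.083, adjusted p = 0.00247). Bcat2 was lower, at 131 to 168 against 204 to 254 CPM (-0.60 ± 0.18, adjusted p = 0.0464), and so was Pccb, at 167 to 201 against 243 to 255 CPM (-0.42 ± 0.12, adjusted p = 0.0303). No TCA or pyruvate gene was called by edgeR. At an unadjusted p under 0.05, 2 TCA genes were lower, and of the pyruvate genes 1 was higher and 2 were lower. DESeq2 called 1 TCA gene lower, Cs, for which edgeR gave -0.42 ± 0.15, adjusted p = 0.0742.

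The 2 lower calls under saline were not stable. Bcat2 missed the threshold when any 1 of 10 libraries was left out (adjusted p up to 0.169), and Pccb when library 2 or 3 of wt saline or library 1 or 2 of ko saline was left out (up to 0.131). Without library 1 of ko CL, which enters this comparison only through the shared spread, 2 members were higher and 7 lower. Library totals moved the median of all tested genes by 0.16 here and gave 4 higher and none lower among the members. Markers of duct epithelium, which could enter a gonadal fat pad with neighbouring tissue, summed to 52.97 to 68.3 CPM in ko saline. They summed to 30.1, 13.3 and 12.2 CPM in the wt saline libraries. Their part in these differences was not tested.

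Under CL the genotypes stood far apart. In ko CL, 40 of the 41 genes were lower than in wt CL, against 29.3% of all tested genes, and 1 was higher, against 27.6%. The median log2 difference was -1.04 for the TCA cycle (18 of 18 lower), -1.20 for pyruvate entry (9 of 10 lower) and -1.33 for branched-chain amino acid breakdown (13 of 13 lower), and 0.003 over all tested genes. Pdk4 differed most and was 5.402-fold lower in ko CL (log2 -2.43 ± 0.11, adjusted p = 3.1e-09). Pdp1 was the gene that was higher, 1.56-fold (log2 0.64 ± 0.092, adjusted p = 5.91e-05).

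Within the TCA cycle the largest differences under CL were those of Idh3g (-1.40 ± 0.11, adjusted p = 2.97e-07) and Sdha (-1.36 ± 0.11, adjusted p = 2.85e-07), followed by Cs (-1.36 ± 0.15, adjusted p = 5.28e-06), and the smallest was that of Idh2 (-0.41 ± 0.084, adjusted p = 0.000974). Of pyruvate entry, Pcx and Mpc1 followed Pdk4, at -1.40 ± 0.15 and -1.40 ± 0.17. Pccb (-1.64 ± 0.12, adjusted p = 1.36e-07) and Mccc1 (-1.56 ± 0.16, adjusted p = 2.75e-06) were the most lowered branched-chain genes and Dbt the least (-1.04 ± 0.15, adjusted p = 4.44e-05). The adipocyte markers were lower in ko CL in 8 of 8, the brown and beige markers in 5 of 5 (median -2.22) and the endothelial markers in 4 of 4 (median -1.11). The macrophage markers were higher in 8 of 8 (median 4.24) and the fibroblast markers in 4 of 4 (median 1.24). Their part in the difference was not tested. With library totals, the median of all genes moved by 0.38 and the difference of Idh2 was -0.02 (adjusted p = 0.821 by edgeR), so its call depends on the scaling.

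The response to CL differed between the genotypes for 40 of the 41 genes when the difference itself was tested. It was more negative in ko for 39, against 23.6% of all tested genes, and more positive for 1, against 21.8%. The median difference between the responses was -1.05 for the TCA cycle (17 of 18), -1.17 for pyruvate entry (9 of 10) and -1.22 for the branched-chain genes (13 of 13), and -0.03 over all tested genes. Pdk4 had the largest (-2.64 ± 0.16, adjusted p = 1.03e-07), then Mut (-1.63 ± 0.12, adjusted p = 4.08e-07), Pdhb (-1.500 ± 0.24, adjusted p = 0.000234) and Acadsb (-1.49 ± 0.12, adjusted p = 1.3e-06). Pdp1 had the positive one (0.69 ± 0.13, adjusted p = 0.000848), and Idh2 was not called (-0.27 ± 0.12, adjusted p = 0.085). The call of Bcat2 (-0.72 ± 0.26, adjusted p = 0.038) was lost without any 1 of 7 libraries, with adjusted p up to 0.0897 by edgeR. Those of Bcat2 and Sdhb (-0.62 ± 0.16, adjusted p = 0.00587) were lost with library totals, at -0.49 and -0.39.

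The balance between the pathways can be read within each library, where no scaling enters. The mean log2 CPM of the 13 branched-chain genes minus that of the 18 TCA genes was -0.24, -0.24 and -0.19 in wt saline, -0.59, -0.57 and -0.62 in wt CL, -0.34, -0.36 and -0.31 in ko saline and -0.90, -0.86 and -0.93 in ko CL. The 4 groups did not overlap, and library 1 of ko CL lay inside its group. In both genotypes the branched-chain genes stood lower against the TCA genes under CL than under saline, and at either treatment they stood lower in ko than in wt. For the pyruvate genes the same quantity was -0.68 to -0.58, -0.44 to -0.35, -0.72 to -0.58 and -0.54 to -0.46, with the CL libraries above the saline libraries in each genotype. These values are a description, with no test.

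Set against the adipocyte markers of the same library, the order of the groups changed. The log2 ratio of the summed CPM of the TCA genes to that of the 8 adipocyte markers was -2.15 to -1.99 in wt saline, -1.23 to -1.13 in wt CL, -1.62 to -1.51 in ko saline and, under CL in ko, -0.85 to -0.79, where it was highest. For the pyruvate genes it was -2.78 to -2.67, -1.81 to -1.66, -2.49 to -2.23 and -1.62 to -1.52. For the branched-chain genes it was -3.11 to -2.98, -2.59 to -2.52, -2.66 to -2.53 and -2.47 to -2.38. On this scale ko CL did not lie below wt CL for any of the 3 pathways, and the branched-chain genes in ko CL did not lie below those in ko saline. The markers are themselves genes that changed, and not alike. By CL in wt, 2 of the 8 were called higher and 1 lower, and under saline 4 were lower in ko and none (0) higher. Fabp4, the most abundant, had a mean of 11428 of the summed 23512 CPM in wt saline, so the ratio depends on the markers chosen. The members are expressed in other cells too.

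**Figure D4:**
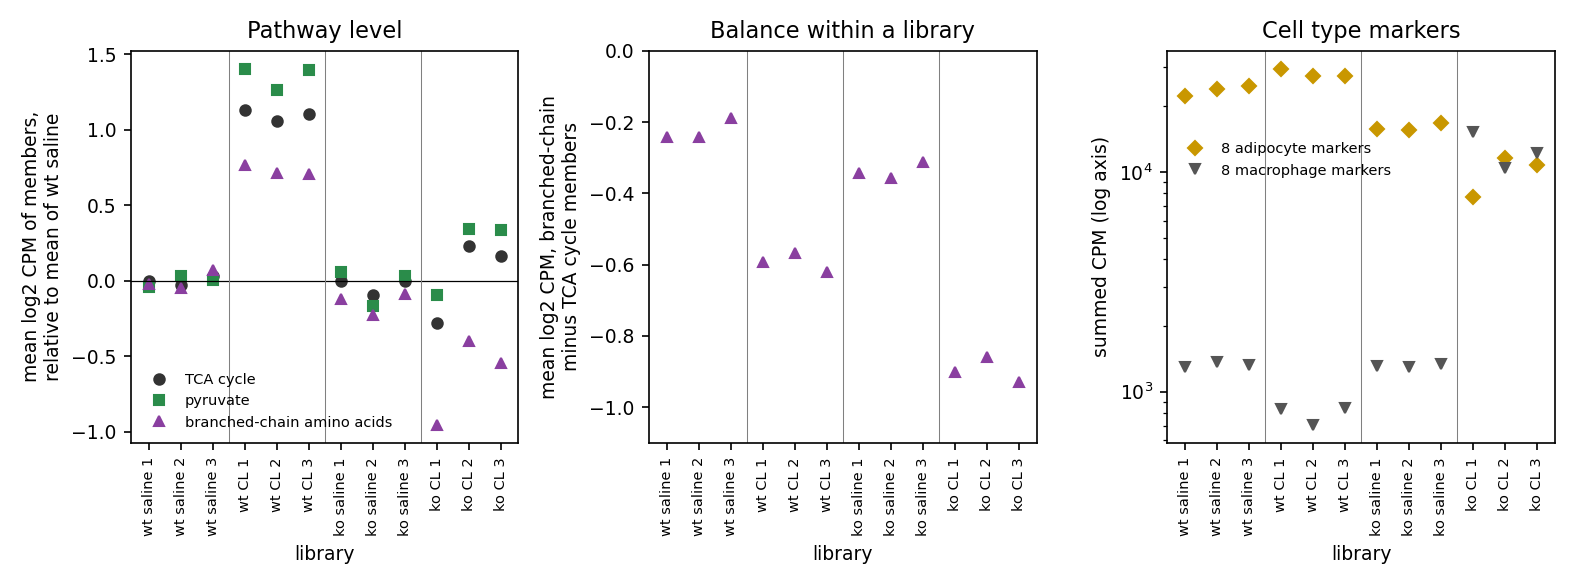
Mean log2 CPM of the genes of each pathway relative to wt saline, the difference between the branched-chain and TCA means, and the summed CPM of the adipocyte and macrophage markers on a log axis, with 1 point per library in the 4 groups. The branched-chain minus TCA difference runs from -0.24 to -0.19 in wt saline down to -0.93 to -0.86 in ko CL, and in ko CL the macrophage markers reach 10422 to 15168 CPM.

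Levels differ widely among the members. Per kilobase of exon, the highest in wt saline were Pcx (389.7 ± 5.99, SD, n = 3), Mdh1 (307 ± 9.54), Pdha1 (168 ± 5.69) and Sdha (152 ± 4.21 CPM per kilobase), and the lowest was Pdp1 (3.96 ± 0.167). Pcx and Mdh1 differed by more than their spread, and so did Pdha1 and Sdha. The 4 subunits of succinate dehydrogenase, which form the enzyme in equal numbers, were at 152 ± 4.21, 66.4 ± 0.511, 36.9 ± 0.641 and 147 ± 2.74 CPM per kilobase for Sdha, Sdhb, Sdhc and Sdhd. Sdha and Sdhd did not differ beyond their spread, and Sdhc was the lowest, as it also was in wt CL (62.7 ± 3.91). Exon lengths are those of the union of annotated exons, so genes with long untranslated exons, such as Hibadh or Mccc1, appear low on this scale.

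A further 49 genes of these pathways, from a list that holds the remaining enzymes, assembly factors, carriers and regulators, moved less uniformly. CL raised 34 and lowered 5 of them in wt (median log2 difference 0.53), and raised 12 and lowered 19 in ko (median -0.10). In ko CL, 36 were lower and 8 higher than in wt CL (median -0.66). Of all tested genes, 19.6% were higher and 17.1% lower in wt, 27.2% and 27.5% in ko, and 27.6% higher and 29.3% lower in ko CL than in wt CL, so the 12 higher in ko were near the share of all genes. The response was more negative in ko for 34 and more positive for 8 (median -0.75), against 23.6% and 21.8% of all tested genes, and under saline 8 were higher and 10 lower in ko, against 7.99% and 6.45%. Those with the smallest adjusted p in wt were Slc25a1, Bckdk and Slc25a11. Slc25a1, the mitochondrial citrate exporter, was at 434, 402 and 414 CPM for wt saline, 1978, 1795 and 2030.1 for wt CL, 285, 237 and 310.3 for ko saline and 327, 431 and 488 for ko CL and rose 4.64-fold (log2 2.22 ± 0.14, adjusted p = 6.06e-07). Bckdk, the kinase that inhibits the branched-chain dehydrogenase, was at 70.2, 63.2 and 64.7 CPM for wt saline, 108, 106 and 104 for wt CL, 65.3, 65.3 and 70.1 for ko saline and 65.1, 70.2 and 67.6 for ko CL and rose by 0.68 ± 0.059, adjusted p = 5.02e-06, while Slc25a11, the oxoglutarate carrier, rose by 0.58 ± 0.051.

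Of the further genes, Got1, Got2 and Slc3a2 had the smallest adjusted p among those higher in ko CL than in wt CL. Got1, the cytosolic aspartate aminotransferase, was at 10.6, 9.25 and 8.75 CPM for wt saline, 12.7, 14.1 and 14.2 for wt CL, 11.9, 12.4 and 11.97 for ko saline and 34.5, 28.1 and 29.4 for ko CL. Got2, its mitochondrial counterpart, was at 38.6, 40.7 and 38.1 CPM for wt saline, 29.3, 25.6 and 26.8 for wt CL, 29.7, 35.6 and 31.5 for ko saline and 50.9, 56.1 and 50.9 for ko CL. Got1 rose in both genotypes, by 0.52 ± 0.10, adjusted p = 0.00164 in wt and by 1.34 ± 0.10, adjusted p = 1.74e-07 in ko, and Got2 fell in wt (-0.52 ± 0.080, adjusted p = 0.00028). Slc3a2, the heavy chain of the amino acid transporter that imports leucine, fell in wt (-0.31 ± 0.061, adjusted p = 0.00147) and rose in ko (0.56 ± 0.060, adjusted p = 5.63e-06). In ko CL they were higher than in wt CL by 1.16 ± 0.10, 0.95 ± 0.080 and 0.65 ± 0.061, and their responses differed by 0.82 ± 0.14, 1.23 ± 0.11 and 0.88 ± 0.086. These genes moved in the direction of the macrophage markers in ko CL; the part of those cells was not tested.

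Pck1, the phosphoenolpyruvate carboxykinase of glyceroneogenesis, was the further gene with the smallest adjusted p among those that fell in ko. It stood at 2831, 2565 and 2050.4 CPM for wt saline, 2729.9, 2117 and 1897 for wt CL, 1213, 1374 and 1169.9 for ko saline and 391, 381 and 306 for ko CL, 3.48-fold lower under CL in ko (log2 -1.80 ± 0.16, adjusted p = 8.71e-07), and 6.25-fold lower in ko CL than in wt CL (log2 -2.65 ± 0.16, adjusted p = 2.82e-08). Dhtkd1, a relative of Ogdh in lysine breakdown, fell in ko (-1.06 ± 0.11, adjusted p = 2.95e-06), as did Mmaa, which serves the cobalamin cofactor of the mutase (-0.57 ± 0.074, adjusted p = 3.21e-05). Slc25a1 and Auh, a hydratase of leucine breakdown, were lower in ko CL than in wt CL, with differences of -2.22 ± 0.14 and -0.95 ± 0.068. Mmaa, Lias, which makes the lipoate of the dehydrogenase complexes, and Acad8, the valine acyl-CoA dehydrogenase, had responses that were more negative in ko, with differences of -1.11 ± 0.10, -0.99 ± 0.10 and -0.82 ± 0.085.

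Under saline the further genes with the smallest adjusted p were Slc7a5, Idh1 and Ogdhl among those higher in ko and Pck1, Me1 and Dhtkd1 among those lower. Malic enzyme (Me1), which makes cytosolic NADPH, was at 1606 to 2209.9 CPM in wt saline and 571 to 992 in ko saline (-1.34 ± 0.24, adjusted p = 0.00406). Pck1 and Dhtkd1 were lower as well (-0.99 ± 0.15 and -0.54 ± 0.10). Slc7a5, the light chain of the leucine transporter, was higher by 1.12 ± 0.19, adjusted p = 0.00277, and Idh1, the cytosolic isocitrate dehydrogenase, by 0.36 ± 0.088, adjusted p = 0.0176. Ogdhl, a tissue-restricted relative of Ogdh, was at 3.24, 0.921 and 0.961 CPM in wt saline and 4.86, 6.66 and 4.499 in ko saline (1.64 ± 0.40, adjusted p = 0.0181). Library 1 of wt saline, its highest wt library, also had the highest duct marker sum of wt; that link was not tested.

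The 3 pathways were set beside 2 other sets of nuclear genes for mitochondrial proteins. Of 30 subunits of the respiratory chain and ATP synthase, CL raised all 30 in wt (median log2 difference 1.11), and raised 6 and lowered 1 in ko (median 0.13). Of 16 tested genes of mitochondrial fatty acid oxidation, 15 rose in wt (median 1.52), and 6 rose and 2 fell in ko (median 0.31). Beside these stand 5 of 18 TCA and 4 of 10 pyruvate genes higher in ko, where 27.2% of all tested genes were called higher, and 11 of 13 branched-chain genes lower in ko, where 27.5% were lower. Under CL, 30 of 30 respiratory genes (median -0.94) and 15 of 16 oxidation genes (median -1.18) were lower in ko than in wt. No test compared the lists with each other.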

How the data were processed

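RNA-seq was made from perigonadal white fat in 12 libraries, each from pooled RNA of 2 mice. The authors deposited raw counts per gene, made with STAR and HTSeq on GRCm38, per the submitters' processing notes. Tool versions and gene models were not given in the sources used here. Reverse-strand counting is named in the file names. Per the deposited summary lines, reads that fit more than 1 place or gene were left out, which lowers genes with near copies. The 5 HTSeq summary lines, 12.45% to 17.23% of counted reads, were left out. Of 53379 identifiers, 53274 were matched to GENCODE M21 symbols.

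Counts were tested with edgeR 4.0.16 in R 4.3.3 (filterByExpr with a minimum count of 10, TMM, glmQLFit and glmQLFTest, 1 mean per group, 8 residual degrees of freedom, biological coefficient of variation 11.5%). On simulated data for CL against saline in wt, the test recovered 71% of genes changed 1.5-fold and 100% of genes changed 2-fold, of 100 each, with 6 false calls among 16197 genes. The simulation gave all genes and libraries the same spread and changed only well-counted genes. It does not describe the comparisons with ko CL, where library 1 stood apart from the other 2. The alternatives were DESeq2 1.42.0, other scalings, no low-count filter, a replicate block, the compared groups alone and each library left out.

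The members, gene lists and motifs were chosen with earlier results of these data known, so no count over them is independent support. A fixed set of 31 members is given library by library, with the 2 most changed of each pathway and direction. Of the further genes, Pdp2, the group means of Pdk3 and the 3 with the smallest adjusted p per direction are given. Of these further genes, 2 are not reported here. Per-kilobase values divide CPM by the union of GENCODE exons. Promoters are from RefSeq GRCm38.p6, and no entry was found for Idh3a, Sdhc, Pdp1, Dbt and Mut. No 2 libraries of a group agreed within sampling noise (chi-square per degree of freedom 7.44 to 60.3).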

Additional observations from a re-analysis of the deposited data

Results flagged for a closer look

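The response to CL differed between ko and wt, by the direct test of that difference (edgeR's quasi-likelihood test, adjusted p under 0.05), for 40 of the 41 genes. The values are the log2 response in ko minus that in wt. In the TCA cycle they were -0.94 for Cs, -0.9995 for Idh3a, -1.05 for Idh3b, -1.29 for Idh3g, -0.96 for Ogdh, -0.92 for Dlst and -1.19 for Dld. They were -1.30 for Sucla2, -1.05 for Suclg1, -1.18 for Suclg2, -1.27 for Sdha, -0.62 for Sdhb, -0.78 for Sdhc, -0.86 for Sdhd, -1.23 for Fh1, -1.23 for Mdh1 and -1.07 for Mdh2. Sdhb and Sdhc thus differed least of the called TCA genes.

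In pyruvate entry the values were -1.07 for Pdha1, -1.50 for Pdhb, -1.30 for Dlat, -0.91 for Pdk1, -0.70 for Pdk2, -2.64 for Pdk4, 0.69 for Pdp1, -1.07 for Pcx, -1.27 for Mpc1 and -1.43 for Mpc2. Among the branched-chain genes they were -0.72 for Bcat2, -0.98 for Bckdha, -0.99 for Bckdhb, -1.03 for Dbt, -1.24 for Ivd, -1.29 for Mccc1 and -1.20 for Mccc2. They were -1.24 for Hibch, -1.20 for Hibadh, -1.63 for Mut, -1.40 for Pcca, -1.22 for Pccb and -1.49 for Acadsb. Without library 1 of ko CL, which has the lowest adipocyte and the highest macrophage marker sum, the pathway medians were -0.90, -1.003 and -1.08 for the TCA cycle, pyruvate entry and branched-chain genes, with 17 of 18, 9 of 10 and 13 of 13 more negative in ko.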

How the results depend on the processing

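No value of the 41 genes in the 5 comparisons changed its direction while called, under any alternative run. With library totals in place of TMM, CL against saline gave 1 gene lower in wt (Pdp1, -0.50) and 4 higher in ko. For ko against wt under saline, 4 were higher and none (0) lower. Of all calls, those that were higher went from 53.4% to 14.2% for CL against saline in wt and 49.7% to 40.3% in ko. For ko against wt they went from 55.3% to 88.1% under saline and 48.5% to 79.5% under CL. For the difference of responses they went from 48.0% to 70.4%. With the compared groups alone, CL against saline gave 4 genes higher in ko, and ko against wt under saline gave 2 higher and 6 lower. Leaving out 1 library at a time gave 3 to 17 genes higher for CL against saline in ko. For ko against wt under saline it gave 1 to 2 higher and 0 to 7 lower. For the difference of responses it gave 38 to 40 more negative in ko. The replicate numbers showed no sign of pairing the samples. Over 18 same-number pairs the correlation of deviations was -0.38 to 0.16, and over 36 different-number pairs -0.22 to 0.42. With 3 libraries per group, these values cannot exclude a pairing. With the number as a block, CL against saline gave 38 higher in wt, and 7 higher and 12 lower in ko; ko against wt gave 1 higher and 40 lower under CL and 1 higher and 2 lower under saline, and the responses 1 positive and 39 negative. Genes that were not called in ko are not shown to be unchanged.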
